A study of Mus musculus with 18 samples.

Results

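RAW264.7 cells, a macrophage-like line of mouse origin, were compared under M1 conditions with and without the histone demethylase gene Kdm7a. The knockout cells were a Kdm7a-deficient line made with CRISPR/Cas9 and a guide RNA against Kdm7a, and the control cells carried a control guide RNA and were labelled wild type. Both were exposed for 48 h to mouse interferon gamma at 2 ng/ml together with bacterial lipopolysaccharide (LPS) at 0.1 µg/ml. The 6 libraries with these titles, 3 knockout and 3 control, were taken from the 18 libraries of the series. The other 12 libraries were knockout and control cells without stimulation (M0), and knockout and control cells under M2 conditions (interleukins 4, 10 and 13, each 20 ng/ml, plus 2 ng/ml of human TGF-β1), 3 of each. The labels name 1 knockout line and do not say whether it was a clone, so effects of losing Kdm7a and other differences between the 2 lines cannot be told apart. Whether replicates came from separate cultures is not stated either, so the p-values speak of the spread among libraries, and that spread may be technical alone.

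Kdm7a belongs to the Jumonji family and removes methyl groups that mark silenced chromatin, mainly on histone H3. M1 polarization is the response of a macrophage to interferon gamma, which acts through Janus kinases, and to LPS, which acts through the receptor TLR4 on NF-kappaB and interferon regulatory factors. Cells in this state release chemokines and inflammatory cytokines, show antigen and costimulatory molecules, make nitric oxide and itaconate, and draw energy from glycolysis.

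Expression was given as TPM, transcript shares of a fixed total, so the depth of each library is unknown. Libraries of the same group correlated across genes at r = 0.997, and knockout with control libraries at 0.983 to 0.984. Between 10316 and 10379 genes reached 1 TPM in the knockout libraries and between 10406 and 10458 in the control libraries. The 10 most abundant genes took 11.6 to 11.7% of all TPM in knockout libraries and 10.9 to 11% in control libraries. All 12 macrophage markers sought, among them Fcer1g and Csf1r, were at 1 TPM or more in every library, and their summed level was 11044 to 11307 TPM in knockout and 11074 to 11213 TPM in control cells. Of 6 epithelial and 5 natural killer cell markers none reached 1 TPM, and Cd3g, Cd4, Cd8a, Cd79b and Ms4a1 of lymphocytes were listed at 0 in all 6 libraries. Other lists held 1 or 2 genes above 1 TPM. The T cell list, led by Lck, summed to 9.09 to 9.53 TPM in knockout and 8.94 to 10.14 TPM in control cells, and the B cell list, led by Cd79a, to 1.91 to 2.92 TPM in knockout and 2.36 to 3.21 TPM in control cells. The dendritic cell list, led by Xcr1, came to 5.11 to 6.14 TPM in knockout and 4.83 to 5.42 TPM in control cells. The endothelial list was nearly all Pecam1, which macrophages also express, and stood at 25.42 to 28.18 TPM in knockout and 20.74 to 22.03 TPM in control cells.

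The targeted transcript was at 7.66, 7.63 and 7.19 TPM in knockout cells, against 30.32, 29.96 and 28.71 TPM in control cells. The knockout level was 25.3% of the control level, a log2 fold change of -1.85 ± 0.049 (SE; limma adjusted p = 1.31e-09), and the groups did not overlap. A guide-directed lesion need not remove the mRNA, so this level does not measure the protein that is left. Kdm7a lies at chr6:39136620-39206773 of the mm10 build (positions of genes from RefSeq, GRCm38.p6). Of its neighbours within 1 Mb, Dennd2a was at 1.67, 2.2 and 2.05 TPM in knockout cells, against 3.38, 3.91 and 3.97 TPM in control cells. Rab19, a small GTPase gene, stood at 6.54 ± 0.59 TPM in knockout and 9.47 ± 0.79 TPM in control cells (SD, n = 3 each, as for all means below), while Braf, a kinase gene, was at 15.4 ± 0.19 TPM in knockout and 15.6 ± 0.88 TPM in control cells and was not called (limma adjusted p = 0.783). Dennd2a and Rab19 had the largest falls among the tested neighbours. Zc3hav1, Ttc26 and Parp12 fell less, and Mkrn1 rose (log2 fold change 0.15). Ubn2, Luc7l2, Klrg2, Hipk2, 4930599N23Rik, Slc37a3, Adck2, Ndufb2 and Mrps33 were, like Braf, not called. Over all tested genes 56.5% were called.

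A gene was called where limma on log2(TPM + 1), fitted to the 6 M1 libraries, gave a Benjamini-Hochberg adjusted p below 0.05. Of 10474 tested genes 5918 were called, 56.5%. In knockout cells 2117 genes were higher (20.2% of those tested) and 3801 lower (36.3%). Counts of list members in all later paragraphs are to be read against these 2 shares. A change of 2-fold or more was rarer, with 97 genes higher (0.926%) and 134 lower (1.28%). Separation of the groups was common. In 22.9% of tested genes every knockout library lay above every control library, and in 40.8% every one lay below. Over all tested genes the log2 fold change had a median of -0.07. With trimmed-mean (TMM) scaling of the TPM that median was 0.00, and 3068 genes were higher and 2712 lower, so the direction of shifts near the median depends on the scaling. By 2-fold or more, 107 genes were higher and 113 lower under TMM. Because bulk RNA was measured, fewer cells of a kind and less RNA per cell cannot be told apart.

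**Figure D1:**
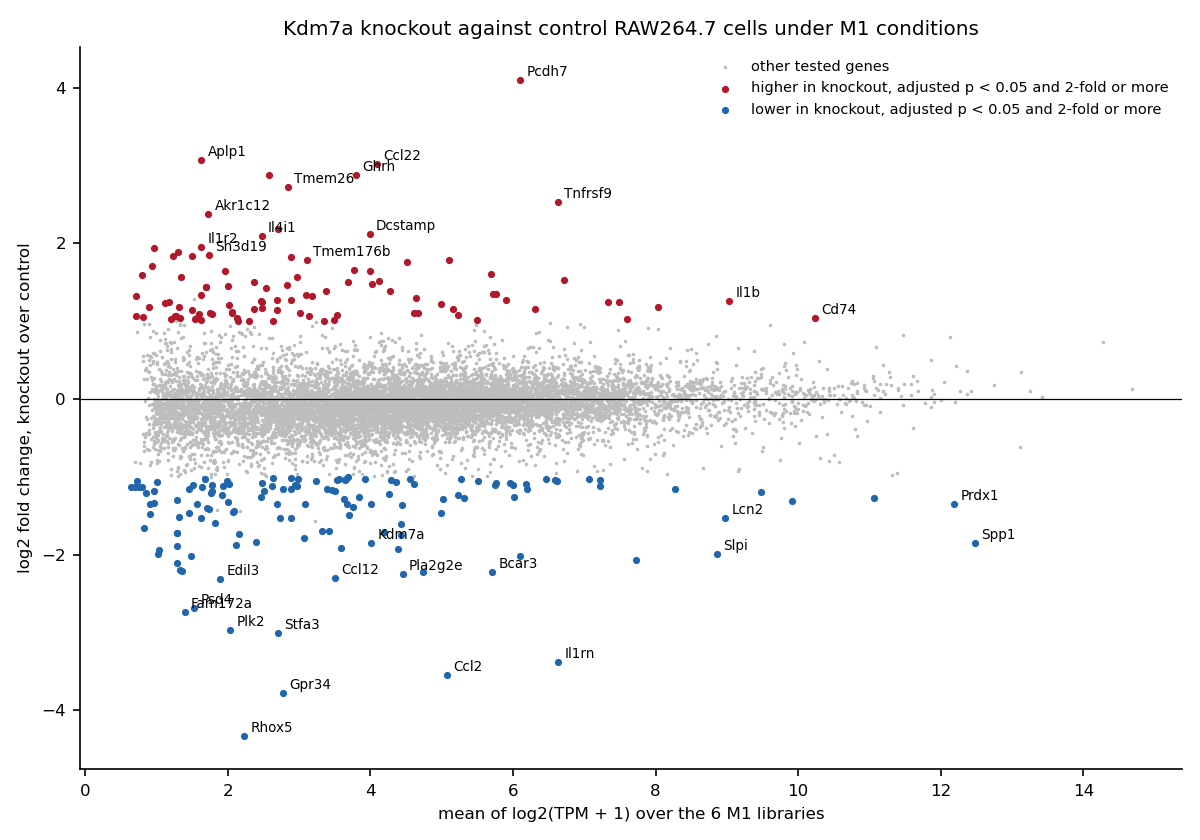
Each point is a tested gene, with its mean of log2(TPM + 1) over the 6 M1 libraries on the horizontal axis and the log2 fold change of knockout over control cells on the vertical axis. Coloured points are genes called with a change of 2-fold or more, 97 higher (red) and 134 lower (blue) in knockout cells. Il1rn, Ccl2, Slpi and Spp1 lie among the falls at high level, and Pcdh7, Tnfrsf9, Il1b and Cd74 among the rises.

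Chemokines, the secreted proteins that guide leukocytes, split into rises and falls. The monocyte chemoattractant genes fell in knockout cells. Ccl2 was at 7.95, 10.09 and 8.64 TPM in knockout cells, against 107.15, 121.55 and 113.99 TPM in control cells, and every knockout library lay below every control library. Ccl12, a mouse gene close to Ccl2, was at 3.2, 5.03 and 4.34 TPM in knockout cells, against 22.98, 24.55 and 25.42 TPM in control cells, and Ccl7 was at 0.27, 0.29 and 0 TPM in knockout cells, against 2.85, 3.8 and 7.56 TPM in control cells. These genes are near neighbours on chromosome 11, Ccl2 at chr11:82035577-82037452, Ccl7 at chr11:82045712-82047525 and Ccl12 at chr11:82101845-82103399. The log2 fold changes were -3.55 ± 0.077 for Ccl2, -2.30 ± 0.12 for Ccl12 and -2.20 ± 0.27 for Ccl7 (limma adjusted p = 1.36e-09, 3.35e-07 and 2.37e-04). Ccl7 varied most, from 2.85 to 7.56 TPM among control libraries.

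Ccl22, a ligand of the receptor CCR4 on regulatory and Th2 T cells, moved the other way. It was at 46.49, 48.29 and 47.45 TPM in knockout cells, against 4.24, 6.06 and 4.73 TPM in control cells, a log2 fold change of 3.02 ± 0.094 (limma adjusted p = 1.05e-08). Ccl5, which attracts T cells and monocytes and was the most abundant chemokine transcript here, was at 25507, 25317 and 25629 TPM in knockout cells, against 15301, 15220.4 and 15345 TPM in control cells. Its groups stood apart, with a log2 fold change of 0.74 ± 0.012 (limma adjusted p = 4.76e-11), but the call was lost when all 18 libraries were fitted together (adjusted p = 0.287). Ccl3 and Ccl4, whose annotated spans overlap and which are close copies, were at 10059.5 ± 275 TPM in knockout and 9401 ± 189 TPM in control cells for Ccl3 and 3534 ± 78 TPM in knockout and 3013 ± 61 TPM in control cells for Ccl4, and both calls were likewise lost with all 18 libraries (adjusted p = 0.170 and 0.122). In the CXC family Cxcl2, which attracts neutrophils, fell to 1363, 1360.4 and 1423 TPM in knockout cells, against 3325, 3265 and 3420.1 TPM in control cells. Cxcl11, a ligand of CXCR3, rose to 407 ± 17 TPM in knockout cells, against 314 ± 7.4 TPM in control cells. Cxcl9, with the same receptor, fell to 4.18 ± 0.15 TPM in knockout cells, against 6.74 ± 1.5 TPM in control cells. In all, 10 of 18 CC chemokine genes passed the filter, of which 4 rose and 5 fell, and, with all 18 libraries, 1 rose. For the other family, 5 of 14 CXC and CX3C genes passed, of which 2 rose and 3 fell.

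Promoters are shown for 2 cytokine genes that rose and 2 that fell under the same stimulus, with that of Kdm7a for contrast. Each runs from 250 bases before to 50 after the RefSeq gene start (GRCm38.p6) on the gene's own strand, and capitals mark CG dinucleotides, the sites of DNA methylation. Ccl22 (chr8:94745434-94745733, plus strand) and Il1b (chr2:129371090-129371389, minus strand) rose. Ccl12 (chr11:82101595-82101894, plus strand) and Il1rn (chr2:24336610-24336909, plus strand, the first of 3 entries) fell. Kdm7a is at chr6:39206724-39207023 on the minus strand.
Ccl22: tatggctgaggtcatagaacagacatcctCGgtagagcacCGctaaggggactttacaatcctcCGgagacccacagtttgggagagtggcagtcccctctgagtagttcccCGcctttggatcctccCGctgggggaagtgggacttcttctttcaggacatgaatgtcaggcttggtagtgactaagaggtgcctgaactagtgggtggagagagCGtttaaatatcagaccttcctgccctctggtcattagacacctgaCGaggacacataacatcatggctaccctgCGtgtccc
Il1b: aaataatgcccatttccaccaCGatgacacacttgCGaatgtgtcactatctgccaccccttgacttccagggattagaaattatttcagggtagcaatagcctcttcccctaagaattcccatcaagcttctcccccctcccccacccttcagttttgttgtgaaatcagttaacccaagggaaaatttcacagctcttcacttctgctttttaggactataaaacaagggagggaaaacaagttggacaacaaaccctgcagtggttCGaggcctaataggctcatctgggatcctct
Ccl12: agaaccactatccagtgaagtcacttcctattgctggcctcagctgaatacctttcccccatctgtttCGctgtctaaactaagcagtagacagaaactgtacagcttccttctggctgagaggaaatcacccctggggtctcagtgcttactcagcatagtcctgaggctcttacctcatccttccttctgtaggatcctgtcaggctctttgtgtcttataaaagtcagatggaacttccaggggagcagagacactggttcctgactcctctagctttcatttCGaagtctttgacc
Il1rn: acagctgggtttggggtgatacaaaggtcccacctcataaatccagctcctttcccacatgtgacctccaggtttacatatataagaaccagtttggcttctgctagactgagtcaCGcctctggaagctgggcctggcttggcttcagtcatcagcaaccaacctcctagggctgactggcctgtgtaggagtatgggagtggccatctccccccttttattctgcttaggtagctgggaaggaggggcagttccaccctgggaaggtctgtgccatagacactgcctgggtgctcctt
Kdm7a: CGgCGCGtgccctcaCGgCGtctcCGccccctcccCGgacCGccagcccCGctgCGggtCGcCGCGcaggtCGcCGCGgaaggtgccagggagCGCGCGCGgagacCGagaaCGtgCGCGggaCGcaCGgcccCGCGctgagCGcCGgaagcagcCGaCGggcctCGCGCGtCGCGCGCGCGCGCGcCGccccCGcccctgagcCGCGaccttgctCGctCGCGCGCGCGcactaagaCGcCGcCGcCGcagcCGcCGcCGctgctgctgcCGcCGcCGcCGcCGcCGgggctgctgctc
The Ccl22, Il1b, Ccl12 and Il1rn promoters hold 8, 3, 2 and 1 CG, against 65 in that of Kdm7a. A TATA box (TATAAA, searched on both strands) begins at position -31 from the gene start in both Il1b and Ccl12, and the AP-1 motif TGANTCA at position -141 in Il1rn. These letters are a description and do not show that a factor binds.

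Over all genes with an entry, the promoters of genes that changed by 2-fold or more held few CG. The median was 8 in 71 promoters of genes higher in knockout cells and 7 in 99 promoters of genes lower there, against 21 in the 8042 promoters of tested genes. A TATA box was in 8.45% of the promoters of the higher and 14.1% of those of the lower genes, against 6.68% of tested and 14.2% of all 27025 promoters. The NF-kappaB consensus, searched on both strands, was in 14.1% of the higher and 5.05% of the lower set, against 10.2% of tested and 8.18% of all promoters. No test was made of these shares.

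Chemokine receptor genes that could be tested mostly rose. Of 17 receptor genes 8 passed the filter and 6 of them rose and 0 fell, with a median log2 fold change of 0.78 over those that passed, against -0.07 over all tested genes. Without the filter 2 receptor genes at low level were called lower. Ccr7, which brings antigen-presenting cells to lymph nodes, rose to 41 ± 2.8 TPM in knockout cells, against 11.4 ± 0.56 TPM in control cells. Ccr2, the receptor for the Ccl2 protein, was at 24.61, 22.49 and 22.38 TPM in knockout cells, against 6.13, 6.93 and 6.93 TPM in control cells. Each knockout library lay above each control library, with a log2 fold change of 1.66 ± 0.063 (limma adjusted p = 1.64e-08). How reads shared with close copies of Ccr2 were assigned is not known. Cx3cr1, the receptor for fractalkine, stood at 51.1 ± 1.6 TPM in knockout and 31.7 ± 1.7 TPM in control cells, and Cxcr4, the receptor for CXCL12, at 3.63 ± 0.65 TPM in knockout and 1.53 ± 0.43 TPM in control cells. Ccr2 rose while the gene of its ligand Ccl2 fell.

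**Figure D2:**
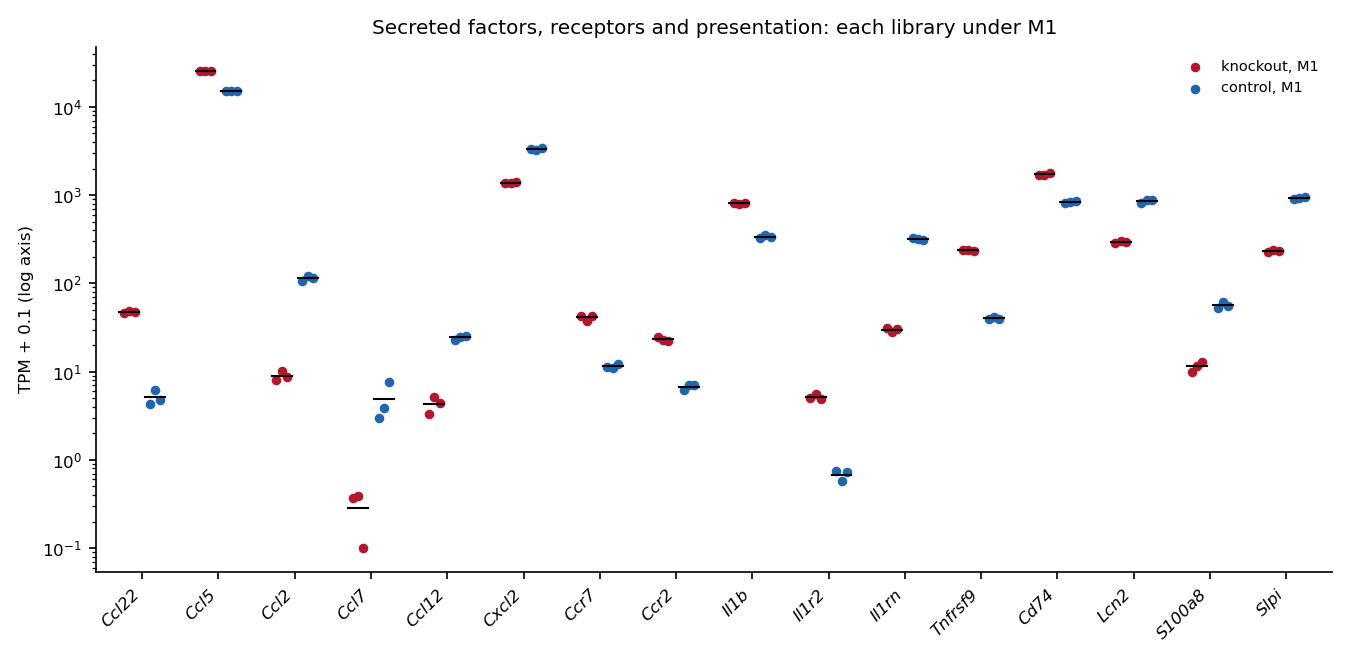
Each point is a library, with TPM + 0.1 on a log axis, knockout cells (red) left of control cells (blue) for each gene, and short lines at the group means. In all 16 genes shown, which were picked, the 3 knockout libraries do not overlap with the 3 control libraries. Over all tested genes 22.9% lay wholly above and 40.8% wholly below in knockout cells.

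In the interleukin 1 family Il1b and Il1a rose, as did the decoy receptor gene Il1r2, while the receptor antagonist gene Il1rn fell. Il1b, the secreted inflammatory cytokine, was at 810, 796.06 and 812.21 TPM in knockout cells, against 324.47, 352.34 and 333.97 TPM in control cells. Il1a, its membrane-bound relative, was at 99.49, 98.86 and 95.74 TPM in knockout cells, against 69.51, 74.22 and 77.26 TPM in control cells. Il1rn, the natural antagonist of their receptor, was at 30.74, 27.89 and 30.64 TPM in knockout cells, against 331.2, 320.63 and 306.69 TPM in control cells, and the knockout level was 9.31% of the control level. On the log2 scale Il1b changed by 1.26 ± 0.029, Il1a by 0.41 ± 0.039 and Il1rn by -3.38 ± 0.043 (limma adjusted p = 5.47e-10, 1.20e-05 and 7.93e-12). Il1r2, the decoy receptor that binds IL-1 without signalling, was at 4.97, 5.48 and 4.81 TPM in knockout cells, against 0.64, 0.48 and 0.62 TPM in control cells. Il18 stood at 67.7 ± 2.9 TPM in knockout and 61.1 ± 1.5 TPM in control cells and Il18bp, the protein that neutralizes it, at 11.6 ± 0.67 TPM in knockout and 9.46 ± 0.75 TPM in control cells, and both calls were lost in the fit of all 18 libraries (adjusted p = 0.226 and 0.0694). Of the 16 members 11 passed the filter, 6 rose and 1 fell.

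Other secreted factors mostly fell, 12 of the 19 that passed the filter against 6 that rose. Csf3, which encodes the granulocyte growth factor G-CSF, was at 614.8, 600.34 and 629.26 TPM in knockout cells, against 1503, 1504 and 1557 TPM in control cells. Csf2, which encodes GM-CSF, was at 7.2, 8.36 and 6.48 TPM in knockout cells, against 19.32, 20.13 and 23.15 TPM in control cells. Spp1, which encodes the matrix protein osteopontin, fell to 3089, 2951 and 2930.3 TPM in knockout cells, against 10815, 10432 and 11149 TPM in control cells. The log2 fold changes of these growth and matrix factors were -1.31 ± 0.023, -1.39 ± 0.091 and -1.85 ± 0.027 (limma adjusted p = 7.86e-11, 1.00e-06 and 4.76e-11). Among subunits of the IL-12 family, Il12b was at 4.50 ± 0.27 TPM in knockout and 8.58 ± 1.6 TPM in control cells, Il23a at 5.55 ± 0.71 TPM in knockout and 12.6 ± 1.5 TPM in control cells and Il27 at 729 ± 8.3 TPM in knockout and 1030.3 ± 20.5 TPM in control cells, all lower in knockout cells. Ebi3, which pairs with the IL-27 subunit, rose to 405 ± 5.1 TPM in knockout cells, against 289 ± 6.9 TPM in control cells. Il12a was listed at 0 in all 6 libraries. Ifnb1, the interferon beta gene, fell to 4.39, 4.09 and 5.3 TPM in knockout cells, against 11.89, 8.22 and 11.24 TPM in control cells. Vegfa, the vascular growth factor, and Il15, which sustains natural killer cells, rose to 612 ± 5.8 and 249 ± 10.1 TPM in knockout cells, against 348 ± 9.0 and 186 ± 6.3 TPM in control cells. Il6 was not called (limma adjusted p = 0.169), at 1599 ± 23 TPM in knockout and 1550.2 ± 59 TPM in control cells, and was called higher under TMM scaling. The call of Il27 was lost in the fit of all 18 libraries (adjusted p = 0.101).

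Among TNF family ligands 5 of 8 that passed the filter fell, and the 1 rise was that of Tnfsf13b (2.24 ± 0.20 TPM in knockout and 1.72 ± 0.095 TPM in control cells). Its call was lost with the replicate block, without the filter, with a pseudocount of 0.1 TPM and in 5 of 6 fits that left out a library. Tnf itself was at 1559, 1518 and 1548 TPM in knockout cells, against 2174, 2118 and 2150.2 TPM in control cells, with a log2 fold change of -0.48 ± 0.018 (limma adjusted p = 1.62e-08), and Tnfsf12, which encodes TWEAK, was at 1.12 ± 0.10 TPM in knockout and 2.91 ± 0.21 TPM in control cells. Its receptor gene Tnfrsf12a was at 12.3 ± 1.2 TPM in knockout and 16.01 ± 1.6 TPM in control cells. The receptors were divided, 4 up and 5 down of 12. Tnfrsf9, which encodes the T cell costimulatory receptor CD137, was at 236.13, 241.46 and 235.07 TPM in knockout cells, against 39.42, 41.56 and 39.9 TPM in control cells. Its log2 fold change was 2.53 ± 0.029 (limma adjusted p = 3.99e-12), while its ligand gene Tnfsf9 fell to 110.4 ± 3.5 TPM in knockout cells, against 137 ± 7.7 TPM in control cells. Fas, the death receptor, rose to 450.4 ± 3.8 TPM in knockout cells, against 288 ± 2.0 TPM in control cells, and Tnfrsf26 fell to 68.7 ± 0.75 TPM in knockout cells, against 134 ± 2.2 TPM in control cells.

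Surface molecules that steer T cells also moved in opposite directions, 8 higher and 9 lower of 19, against 20.2% and 36.3% of all tested genes. Cd80 and Cd86 encode the 2 ligands of CD28. Cd80 was at 175.79, 171.32 and 172.86 TPM in knockout cells, against 104.19, 107.96 and 99.71 TPM in control cells. Cd86 was at 97.75, 102.09 and 100.98 TPM in knockout cells, against 222.25, 225.84 and 209.99 TPM in control cells. Cd80 was thus the higher of the pair in knockout cells and Cd86 in control cells, with log2 fold changes of 0.73 ± 0.031 for Cd80 and -1.12 ± 0.032 for Cd86. Cd83 and Icam1, the adhesion ligand of lymphocyte integrins, rose to 382 ± 5.5 and 542 ± 11 TPM in knockout cells, against 272 ± 8.0 and 395 ± 8.3 TPM in control cells. Cd274, which encodes the inhibitory ligand PD-L1, fell to 392 ± 0.94 TPM in knockout cells, against 595 ± 14 TPM in control cells. Slamf7 fell to 204 ± 7.4 TPM in knockout cells, against 399.7 ± 19 TPM in control cells, and Cd200r1, an inhibitory receptor, to 0.823 ± 0.14 TPM in knockout cells, against 4.26 ± 0.18 TPM in control cells.

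Genes that receive the M1 signals changed by small amounts. Tlr4, the LPS receptor, was at 22.42, 20.98 and 20.65 TPM in knockout cells, against 30.63, 31.99 and 29.55 TPM in control cells, and its co-receptor Cd14 at 2834 ± 51 TPM in knockout and 2565 ± 42 TPM in control cells. Tlr4 fell and Cd14 rose (log2 fold changes -0.51 ± 0.047 and 0.14 ± 0.019), while Ly96, the third component, was at 99.8 ± 3.9 TPM in knockout and 95.8 ± 6.7 TPM in control cells and was not called, though it was called higher under TMM. Of 20 sensing genes 6 rose and 7 fell, and 8 and 5 did so under TMM scaling, while 3 rose and 8 fell with all 18 libraries. Of 26 subunits and inhibitors of NF-kappaB 9 were higher and 4 lower (14 and 2 under TMM). Over all tested genes 20.2% were higher and 36.3% lower. The inhibitor gene Nfkbia, itself an NF-kappaB target, rose to 1034, 1052 and 1033 TPM in knockout cells, against 808.41, 774.48 and 820.13 TPM in control cells. Rel and Nfkb2, subunit genes, rose to 98.2 ± 3.5 and 255 ± 7.6 TPM in knockout cells, against 78.8 ± 1.4 and 205 ± 1.2 TPM in control cells, and Rela was not called (log2 fold change -0.02 ± 0.029, 95% interval -0.09 to 0.04).

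Receptors and signal carriers of the interferon and cytokine pathways mostly rose. Of 29 such genes 27 passed the filter, 23 rose and 1 fell, with a median log2 fold change of 0.18, and under TMM scaling 24 rose and 1 fell. The gains were modest. Ifngr1, which binds interferon gamma, was at 20.35, 23.22 and 21.75 TPM in knockout cells, against 17.53, 16.14 and 16.13 TPM in control cells. Ifnar1, a chain of the type I interferon receptor, was at 41.18, 43.27 and 41.34 TPM in knockout cells, against 30.05, 30.57 and 29.83 TPM in control cells. Irf8, a myeloid regulator, was at 835 ± 11 TPM in knockout and 634 ± 4.8 TPM in control cells. The largest change in this group was that of Il10ra, which encodes a chain of the IL-10 receptor, at 129.61, 126.24 and 126.09 TPM in knockout cells, against 65.14, 62.98 and 64.74 TPM in control cells (log2 fold change 0.97 ± 0.028, limma adjusted p = 1.95e-09). Il10 itself was low and fell to 0.64, 0.43 and 1.03 TPM in knockout cells, against 2.99, 1.91 and 1.67 TPM in control cells. Jak3 was the gene that fell, at 11.8 ± 0.79 TPM in knockout and 15.5 ± 0.41 TPM in control cells. The feedback inhibitor Socs3 rose to 1188 ± 8.8 TPM in knockout cells, against 791 ± 28 TPM in control cells.

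Antiviral targets of these pathways were divided. Of 34 antiviral interferon-stimulated genes 8 were higher and 17 lower, and with TMM scaling 16 were higher and 11 lower, so the direction of the group depends on the scaling. In the fit of all 18 libraries 2 were higher and 8 lower. Clear of that shift, Oasl1, an oligoadenylate synthetase-like gene, was at 963.88, 943.97 and 1003 TPM in knockout cells, against 1637, 1647 and 1632 TPM in control cells. Ifit2, an RNA-binding antiviral gene, was at 2721, 2771 and 2661 TPM in knockout cells, against 1999.7, 2042 and 1967 TPM in control cells. Oasl1 thus fell and Ifit2 rose (log2 fold changes -0.76 ± 0.023 and 0.44 ± 0.021), while Mx1, an antiviral GTPase, was at 515 ± 2.1 TPM in knockout and 514 ± 18 TPM in control cells and was not called, though it was called higher under TMM. The guanylate-binding proteins and immunity-related GTPases, which attack the vacuoles of microbes, gave 6 rises and 7 falls among 18 (9 and 6 under TMM), and 2 rises and 5 falls with all 18 libraries. Gbp6 fell to 113 ± 2.3 TPM in knockout cells, against 153 ± 4.0 TPM in control cells. Igtp, a GTPase of the same defence system, rose to 844 ± 15 TPM in knockout cells, against 712 ± 24 TPM in control cells. How reads shared by close copies were assigned is not known, so levels of single members of the Oas, Gbp, Tgtp, H2 and Stfa families are uncertain.

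Genes that handle antigen for MHC class II mostly rose where they could be tested. Cd74, the invariant chain that escorts class II molecules, was at 1687, 1682 and 1789.7 TPM in knockout cells, against 821.73, 829.51 and 860.04 TPM in control cells, a log2 fold change of 1.04 ± 0.027 (limma adjusted p = 1.36e-09). Ifi30, a lysosomal reductase that unfolds antigens, was at 233.88, 250.3 and 241.49 TPM in knockout cells, against 132.68, 122.18 and 136.2 TPM in control cells. The class II chain genes H2-Aa, H2-Ab1 and H2-Eb1 and the transactivator gene Ciita did not pass the filter of 1 TPM in 3 libraries, so 9 of 18 genes were tested, 6 rose and 1 fell. H2-Ab1 came near the filter, at 0.97, 0.85 and 0.94 TPM in knockout cells, against 0.08, 0.18 and 0.17 TPM in control cells. Levels of the class I heavy chain genes H2-K1 and H2-D1 were 2319.7 ± 47 and 4547 ± 51 TPM in knockout cells, against 1918 ± 45 and 3901 ± 13 TPM in control cells. Over 22 class I genes 10 rose and 6 fell, and 14 and 3 under TMM. Without control replicate 1 or 2, 3 of them fell.

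Alarmins and neutrophil-type defence proteins had the lowest median of the lists. Of 19 genes 11 passed the filter, 8 fell, 6 of them by 2-fold or more, and 1 rose, with a median log2 fold change of -1.35 over those that passed. Slpi, a secreted inhibitor of leukocyte proteases, was at 226.02, 237.95 and 233.96 TPM in knockout cells, against 911.91, 931.78 and 947.16 TPM in control cells. Lcn2, which withholds iron from bacteria by binding siderophores, was at 287.01, 299.45 and 297.84 TPM in knockout cells, against 814.26, 872.9 and 876.94 TPM in control cells. S100a8, a subunit of calprotectin, was at 9.93, 11.63 and 12.6 TPM in knockout cells, against 52.94, 62.04 and 55.72 TPM in control cells. In each the groups were wide apart, with log2 fold changes of -1.995 ± 0.025, -1.53 ± 0.031 and -2.23 ± 0.084 (limma adjusted p = 6.57e-12, 2.33e-10 and 4.74e-08). S100a9, the other calprotectin subunit, was listed at 0 in all 6 libraries. Stfa3, a cysteine protease inhibitor of the stefin family, was at 1.17, 0.94 and 1.87 TPM in knockout cells, against 18.91, 18.75 and 15.06 TPM in control cells. The formyl peptide receptor genes Fpr1 and Fpr2 fell to 1.05 ± 0.24 and 9.02 ± 0.19 TPM in knockout cells, against 5.17 ± 0.54 and 24.7 ± 1.6 TPM in control cells. As these are also genes of granulocytes, 6 markers of neutrophils or their precursors were summed, and came to 31.1 to 33.7 TPM in knockout and 41.0 to 43.4 TPM in control cells, nearly all of it Cebpe, with Prtn3 and Ngp listed at 0 in all libraries. The part of such cells in these falls was not tested.

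Genes of proteolysis and complement were divided. Of 11 plasminogen and matrix protease genes 6 fell and 4 rose (5 and 4 under TMM), and of 14 Fc receptor and complement genes 8 fell and 4 rose (7 and 6 under TMM). Plau, which encodes urokinase, was at 11.47, 11.63 and 10.96 TPM in knockout cells, against 35.3, 37.01 and 37.62 TPM in control cells. It fell in every knockout library, by a log2 fold change of -1.61 ± 0.045 (limma adjusted p = 1.92e-09), and Serpinb2, which encodes an inhibitor of urokinase, fell to 22.8 ± 0.91 TPM in knockout cells, against 45.1 ± 2.0 TPM in control cells. C5ar1, the receptor for the complement fragment C5a, was at 8.19, 7.98 and 8.62 TPM in knockout cells, against 21.22, 20.02 and 22.34 TPM in control cells. Of 19 scavenger, lectin and Siglec receptors 12 fell and 3 rose. Msr1, the class A scavenger receptor, was at 412.86, 417.72 and 400.83 TPM in knockout cells, against 796.12, 771.92 and 779.46 TPM in control cells. Siglec1 and Axl, which recognize sialic acids and dying cells, fell to 35.6 ± 2.3 and 3.94 ± 0.24 TPM in knockout cells, against 78.1 ± 2.2 and 10.1 ± 1.0 TPM in control cells. Cd36, a receptor for oxidized lipids, rose to 229 ± 9.5 TPM in knockout cells, against 143 ± 7.2 TPM in control cells.

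Of 35 lysosomal genes 24 fell and 7 rose, with a median log2 fold change of -0.31, and under TMM 21 fell and 9 rose. The protease gene Ctsl was at 465, 474.35 and 466.54 TPM in knockout cells, against 1072, 1073 and 1093 TPM in control cells. Ctsd, another cathepsin, was at 1041, 1062 and 1040.4 TPM in knockout cells, against 1807, 1794 and 1878 TPM in control cells. Cd63, a membrane protein of late endosomes, was at 210.87, 201.25 and 209.93 TPM in knockout cells, against 465.42, 449.2 and 471.51 TPM in control cells. All 3 genes were lower in every knockout library, by log2 fold changes of -1.20 ± 0.019, -0.80 ± 0.021 and -1.15 ± 0.027. Enzymes of glycan and lipid breakdown such as Gusb and Hexa fell to 104 ± 3.2 and 66.04 ± 0.75 TPM in knockout cells, against 189 ± 0.85 and 110.2 ± 1.3 TPM in control cells. Tfe3, a regulator of lysosome genes, fell to 59.5 ± 4.0 TPM in knockout cells, against 74.9 ± 3.0 TPM in control cells, while its relative Tfeb rose to 6.18 ± 0.25 TPM in knockout cells, against 4.44 ± 0.57 TPM in control cells. Laptm5, a lysosomal membrane protein of blood cells, rose to 543 ± 5.0 TPM in knockout cells, against 332 ± 6.4 TPM in control cells.

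**Figure D3:**
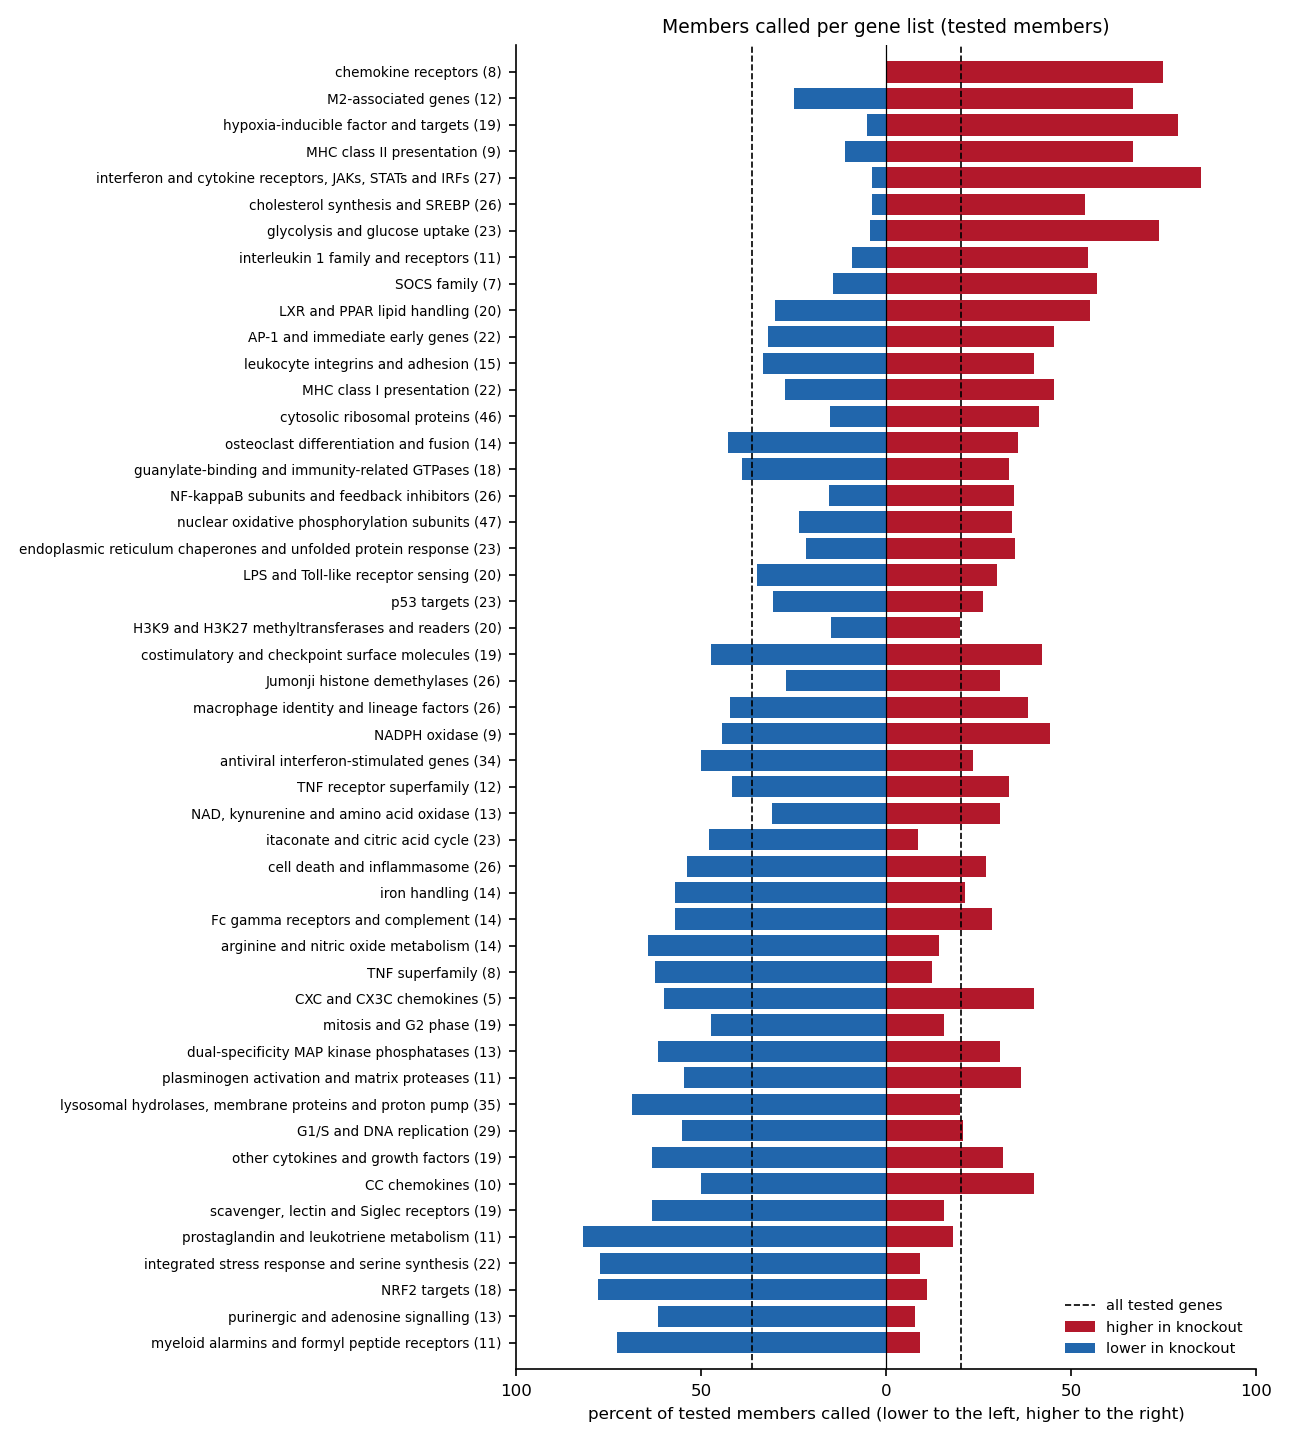
Bars give the percent of tested members called higher (red, to the right) or lower (blue, to the left) in knockout cells for each list, with the number of tested members in parentheses and lists ordered by median log2 fold change. Dashed lines mark 20.2% higher and 36.3% lower over all tested genes. The chemokine receptor, M2-associated and hypoxia lists stand at the top, and the alarmin, purinergic and NRF2 lists at the bottom.

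Glycolysis genes mostly rose. Of 23 genes of glycolysis and glucose uptake 17 rose and 1 fell, and under TMM 19 rose and 1 fell. Over all tested genes 20.2% were higher and 36.3% lower. Slc2a3, a glucose transporter, was at 107.97, 111.02 and 112.67 TPM in knockout cells, against 61.91, 61.52 and 57.91 TPM in control cells. Gapdh, often used as a reference gene, was at 5395, 5458 and 5582 TPM in knockout cells, against 4075, 4061 and 4128 TPM in control cells, a log2 fold change of 0.42 ± 0.017 (limma adjusted p = 2.22e-08). Pfkp, the platelet-type phosphofructokinase, rose to 503 ± 6.2 TPM in knockout cells, against 395 ± 7.2 TPM in control cells. The fall was that of Hk3, a hexokinase of myeloid cells, to 299 ± 6.4 TPM in knockout cells, against 554 ± 8.8 TPM in control cells.

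The hypoxia-inducible factor and its targets rose in 15 of 19 cases and fell in 1, with a median log2 fold change of 0.38. Hif1a, the factor's regulated subunit, was at 229.13, 243.17 and 228.8 TPM in knockout cells, against 170.68, 171.92 and 165.04 TPM in control cells. Egln3, a prolyl hydroxylase that marks the factor for destruction, was at 37.09, 36.78 and 34.63 TPM in knockout cells, against 16.93, 16.36 and 15.56 TPM in control cells. Adm, the vasoactive peptide adrenomedullin, was at 174.35, 177.22 and 169.66 TPM in knockout cells, against 86.69, 95.87 and 91.88 TPM in control cells. These genes stood apart in all libraries, by log2 fold changes of 0.46 ± 0.030, 1.10 ± 0.047 and 0.92 ± 0.037 (limma adjusted p = 6.77e-07, 3.21e-08 and 2.20e-08). Vhl, which encodes the ligase subunit that degrades the factor, also rose, to 139.9 ± 3.7 TPM in knockout cells, against 98.3 ± 2.5 TPM in control cells.

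In mitochondrial metabolism Irg1 (Acod1), which makes itaconate from a citric acid cycle intermediate, rose to 5989, 5997 and 6009 TPM in knockout cells, against 4675, 4627 and 4703 TPM in control cells, a call lost with all 18 libraries (adjusted p = 0.217). Of 23 genes of this pathway and the citric acid cycle 2 rose and 11 fell, and under TMM 5 rose and 7 fell. Idh3a and Idh3b, subunits of the NAD-dependent isocitrate dehydrogenase, fell to 18 ± 0.98 and 73.02 ± 1.2 TPM in knockout cells, against 22.4 ± 2.3 and 92.4 ± 3.8 TPM in control cells. Nos2, the inducible nitric oxide synthase, was at 3446 ± 54 TPM in knockout and 3572 ± 55 TPM in control cells, a log2 fold change of -0.05 ± 0.018 (limma adjusted p = 0.0322) that was 0.02 and not called under TMM, and not called without 1 knockout or either of 2 control libraries. The Nos2 call was also lost with all 18 libraries (limma adjusted p = 0.937), with median-ratio scaling, without the filter and without the variance trend. Gch1, the first enzyme in the synthesis of its cofactor tetrahydrobiopterin, fell to 45.5 ± 1.9 TPM in knockout cells, against 56.7 ± 3.1 TPM in control cells. Of 14 genes of arginine and nitric oxide metabolism 2 rose and 9 fell (2 and 5 under TMM), against 20.2% higher and 36.3% lower over all tested genes.

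Prostaglandin and leukotriene genes fell in 9 of 11 cases. Ptgir, the prostacyclin receptor, was at 23.01, 25.79 and 24.89 TPM in knockout cells, against 60.4, 59.85 and 62.14 TPM in control cells. Ptger4, a receptor for prostaglandin E2, was at 12.91, 13.55 and 13.75 TPM in knockout cells, against 6.16, 6.18 and 6.25 TPM in control cells. The receptors thus moved in opposite directions, by log2 fold changes of -1.27 ± 0.044 and 1.001 ± 0.056. Ptgs2, the inducible cyclooxygenase, rose to 10033, 10126 and 9968 TPM in knockout cells, against 8019.9, 7903 and 7748 TPM in control cells, while the prostaglandin E synthase gene Ptges fell to 14.7 ± 0.82 TPM in knockout cells, against 20.4 ± 1.6 TPM in control cells. The call of Ptgs2 was lost with all 18 libraries (adjusted p = 0.651). On the leukotriene side Alox5 and Alox5ap fell to 1.25 ± 0.051 and 127 ± 5.0 TPM in knockout cells, against 3.60 ± 0.33 and 185 ± 12 TPM in control cells.

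Antioxidant genes that the factor NRF2 drives gave 14 falls and 2 rises among 18, with a median log2 fold change of -0.52. Prdx1, a peroxide-reducing enzyme and among the most abundant transcripts of control cells, was at 2881, 3005 and 2854 TPM in knockout cells, against 7525, 7489 and 7238 TPM in control cells. Hmox1, which breaks down heme, was at 1138, 1148 and 1147 TPM in knockout cells, against 1931, 2005 and 2074 TPM in control cells. Sqstm1, the autophagy receptor p62, was at 1826, 1833 and 1813 TPM in knockout cells, against 3507, 3573 and 3683 TPM in control cells. Every knockout library was lower, by log2 fold changes of -1.35 ± 0.023, -0.81 ± 0.025 and -0.98 ± 0.020 (limma adjusted p = 6.25e-11, 3.04e-09 and 2.28e-10). Slc7a11, which imports cystine for glutathione synthesis, was at 40.27, 42.55 and 39.84 TPM in knockout cells, against 100.11, 101.75 and 96.51 TPM in control cells. Nfe2l2, which encodes NRF2 itself, fell to 78.5 ± 1.6 TPM in knockout cells, against 96.3 ± 1.6 TPM in control cells, and its inhibitor gene Keap1 was at 41.99 ± 1.4 TPM in knockout and 39.3 ± 2.0 TPM in control cells and was not called, though it was called higher under TMM. Me1, the cytosolic malic enzyme, rose to 86.1 ± 3.6 TPM in knockout cells, against 61.9 ± 1.5 TPM in control cells.

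Iron genes split by chain and by route. Ftl1, the ferritin light chain, was at 7021, 7078 and 7245 TPM in knockout cells, against 10874, 10775 and 11025 TPM in control cells. Fth1, the heavy chain, was at 27121, 27614 and 27685 TPM in knockout cells, against 24612, 25132 and 25416 TPM in control cells. The light chain thus fell and the heavy chain rose, by log2 fold changes of -0.61 ± 0.016 and 0.13 ± 0.015, and how reads of ferritin pseudogenes were assigned is not known. Slc40a1, the iron exporter ferroportin, was at 6.56, 7.34 and 6.44 TPM in knockout cells, against 19.47, 21.68 and 21.5 TPM in control cells. Hamp, which encodes hepcidin, the hormone that removes ferroportin from the membrane, was at 12.95, 10.23 and 12.2 TPM in knockout cells, against 27.29, 24.92 and 20.8 TPM in control cells. Exporter and hormone were both lower in knockout cells (limma adjusted p = 4.12e-08 and 7.08e-05). In total 3 of 14 iron genes rose and 8 fell (6 and 7 under TMM).

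The integrated stress response and serine synthesis list, which shares Slc7a11 with the NRF2 list, fell in 17 of 22 cases and rose in 2 (median log2 fold change -0.39). Phgdh, which opens serine synthesis, was at 37.38, 35.2 and 36.05 TPM in knockout cells, against 75.53, 77.36 and 79.94 TPM in control cells. Shmt2, which passes serine carbon to folate in mitochondria, was at 15.02, 16.43 and 15.02 TPM in knockout cells, against 30.07, 31.4 and 36.72 TPM in control cells. Asns, the asparagine synthetase, was at 100.99, 104.44 and 105.84 TPM in knockout cells, against 191.92, 194.03 and 206.6 TPM in control cells. Their log2 fold changes were -1.08 ± 0.036, -1.03 ± 0.071 and -0.92 ± 0.033 (limma adjusted p = 6.02e-09, 1.56e-06 and 1.05e-08). Atf4, the factor that drives the response, fell less, to 668 ± 7.8 TPM in knockout cells, against 802 ± 23 TPM in control cells, and Atf3 rose to 1872 ± 7.7 TPM in knockout cells, against 1590.2 ± 37 TPM in control cells.

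**Figure D4:**
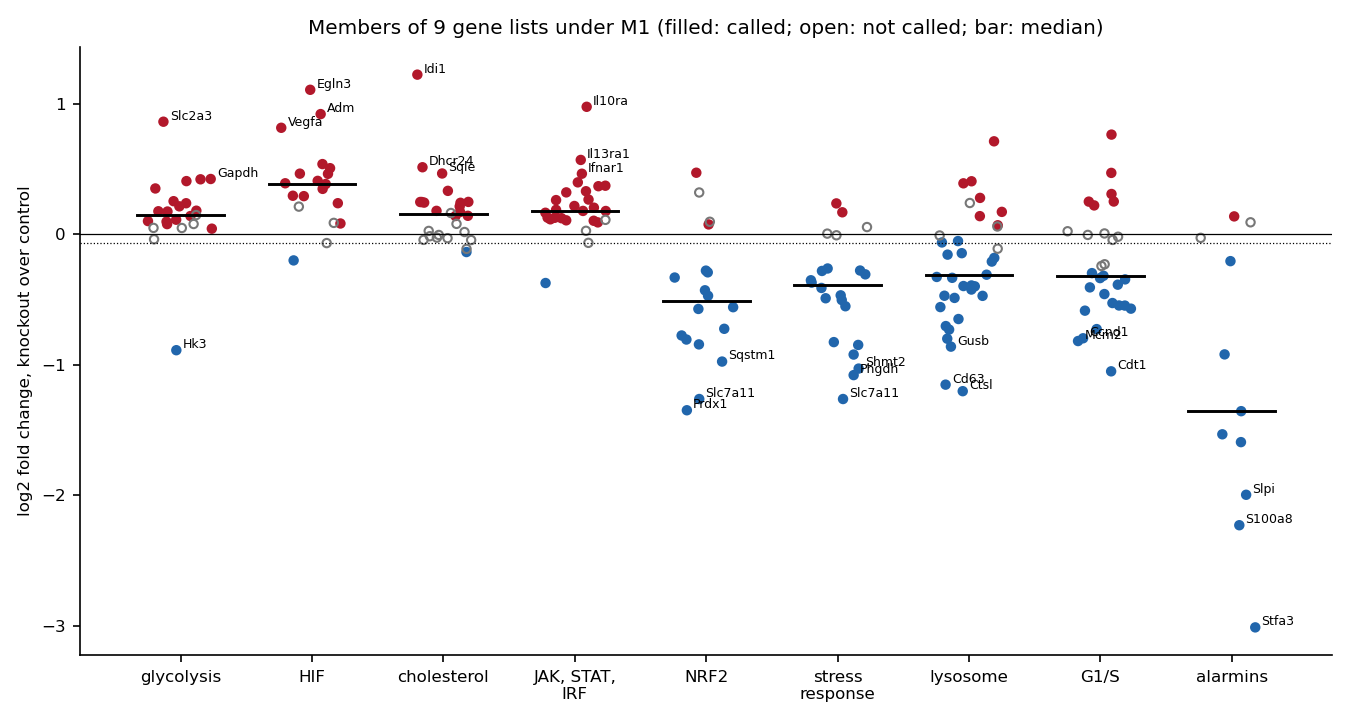
Each point is a tested member of 1 of 9 lists, with the log2 fold change of knockout over control cells on the vertical axis, filled red or blue where called higher or lower and open where not called. Bars are list medians, from 0.38 for hypoxia-inducible factor targets to -1.35 for alarmins, and the dotted line is the median of all tested genes, -0.07.

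Cholesterol synthesis genes rose in 14 of 26 cases and fell in 1. Idi1, which isomerizes isopentenyl diphosphate, was at 48.15, 48.54 and 46.26 TPM in knockout cells, against 19.77, 20.8 and 19.08 TPM in control cells. Sqle, a controlling enzyme of the pathway, was at 65, 63.17 and 65.18 TPM in knockout cells, against 45.09, 48.19 and 46.07 TPM in control cells. Both were higher in every knockout library, with log2 fold changes of 1.22 ± 0.043 and 0.46 ± 0.035. Among genes of lipid handling, Lpl, the lipoprotein lipase, and Abca1, the cholesterol exporter, rose to 53.9 ± 2.4 and 4.68 ± 0.37 TPM in knockout cells, against 24.9 ± 0.24 and 1.97 ± 0.17 TPM in control cells. Fabp5 and Plin2, which bind fatty acids and coat lipid droplets, fell to 66.99 ± 3.0 and 419 ± 6.9 TPM in knockout cells, against 141 ± 6.2 and 782 ± 10.3 TPM in control cells. That list gave 11 rises and 6 falls among 20.

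Genes of the division cycle are read against 36.3% lower and 20.2% higher over all tested genes. Of 29 genes of G1/S and replication 16 fell and 6 rose, and of 19 mitotic genes 9 fell and 3 rose (15 and 3 with all 18 libraries). Cdt1, which licenses replication origins, was at 30.97, 29.01 and 32.26 TPM in knockout cells, against 65.15, 63.81 and 65.13 TPM in control cells. Ccnd1, which encodes cyclin D1, was at 79.27, 77.81 and 78.79 TPM in knockout cells, against 136.17, 135.57 and 140.33 TPM in control cells. Ccnd2, which encodes cyclin D2, was at 74.84, 73.57 and 72.82 TPM in knockout cells, against 42.55, 43.85 and 42.83 TPM in control cells. Cyclin D1 thus fell and cyclin D2 rose, by log2 fold changes of -0.80 ± 0.026 and 0.76 ± 0.030 (limma adjusted p = 5.77e-09 and 2.09e-08). The proliferation marker gene Mki67 was at 2.57, 2.66 and 2.27 TPM in knockout cells, against 5.88, 6.11 and 5.1 TPM in control cells, and Pcna, the replication clamp, at 269.7 ± 2.7 TPM in knockout and 358 ± 11 TPM in control cells. Plk2, a polo-like kinase gene and target of p53, was at 0.25, 0.27 and 1 TPM in knockout cells, against 10.35, 10.97 and 10.15 TPM in control cells, while Cdkn1a, the best known p53 target, rose to 1951 ± 29 TPM in knockout cells, against 1693 ± 19.6 TPM in control cells. Over 23 p53 targets 6 rose and 7 fell. Casp1, the inflammasome caspase that matures IL-1β, fell to 294 ± 5.7 TPM in knockout cells, against 388 ± 1.3 TPM in control cells, and Nlrp3 was not called at 322 ± 5.0 TPM in knockout and 328 ± 1.3 TPM in control cells.

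The largest changes included genes not yet described. Pcdh7, a protocadherin adhesion gene, had the largest rise on the log2(TPM + 1) scale, at 289.39, 282.05 and 277.53 TPM in knockout cells, against 15.12, 15.66 and 15.92 TPM in control cells. Ghrh, which encodes growth hormone-releasing hormone, was at 34.08, 41.48 and 34.75 TPM in knockout cells, against 3.86, 6.23 and 2.87 TPM in control cells. Dcstamp, which is needed for the fusion of osteoclasts, was at 30.39, 35.62 and 30.85 TPM in knockout cells, against 7.16, 6.84 and 5.93 TPM in control cells. Their log2 fold changes were 4.10 ± 0.032, 2.87 ± 0.24 and 2.12 ± 0.077 (limma adjusted p = 2.40e-13, 1.90e-04 and 1.41e-08). Il4i1, a secreted amino acid oxidase, rose to 8.3, 14.49 and 9.56 TPM in knockout cells, against 1.2, 1.78 and 2.2 TPM in control cells. Aplp1, an amyloid precursor-like gene, was at 8.59, 8.56 and 6.82 TPM in knockout cells, against 0.04, 0.09 and 0.08 TPM in control cells, a larger ratio of means than that of Pcdh7 (114.1 against 18.2). The genes Tmem26, Akr1c12, Sh3d19 and Tmem176b completed the 12 largest rises with log2 fold changes of 2.73, 2.38, 1.84 and 1.79. Among the falls, Rhox5, a homeobox gene of the X chromosome, was at 0, 0 and 0.15 TPM in knockout cells, against 19.95, 18.71 and 21.83 TPM in control cells. Gpr34, a lysophosphatidylserine receptor gene, was at 0.76, 1.21 and 0.64 TPM in knockout cells, against 25.98, 23.9 and 23.7 TPM in control cells. Fam172a was at 0, 0 and 0.05 TPM in knockout cells, against 6.17, 6.19 and 5.1 TPM in control cells. These were near absent in knockout cells and plainly present in control cells. Bcar3, an adaptor in adhesion signalling, was at 22.61, 25.05 and 21.92 TPM in knockout cells, against 111.87, 114.07 and 110.53 TPM in control cells. Pla2g2e, a secreted phospholipase, Psd4 and Edil3 had log2 fold changes of -2.25, -2.68 and -2.31. Psd4 at chr2:24367558-24409870 is a near neighbour of Il1rn at chr2:24336860-24351491. In M0 Psd4 was at 0.07 ± 0.046 TPM in knockout and 2.60 ± 0.30 TPM in control cells. Under M2 it was at 0.093 ± 0.035 TPM in knockout and 2.20 ± 0.050 TPM in control cells, so its fall was not limited to M1. Whether the falls of Psd4 and Il1rn are linked was not tested.

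Whether the knockout acted alike in other states was asked with the M0 and M2 libraries, which share no library with the M1 contrast. Of the 97 genes higher by 2-fold or more under M1, 19 were so in M0 (19.6% of the M1 set and 38% of the 50 in M0) and 21 under M2 (21.6% and 22.3% of the 94 under M2). Of the 134 lower ones, 25 were so in M0 (18.7% of the M1 set and 50% of the 50 in M0) and 28 under M2 (20.9% and 49.1% of the 57 under M2). In all 3 conditions 17 were higher and 20 lower. The M0 sets came from 10780 tested genes and the M2 sets from 10905. Genes below the filter in M0 or M2, among them Ccl22, Ghrh, Ccl2 and Il1rn, were not tested there and count here as not shared. The shares of the M1 sets are lowered by such genes and do not measure how far the knockout acted alike. Rhox5 was at 0, 0.12 and 0.28 TPM in knockout and 73.55, 70.77 and 71.3 TPM in control cells in M0, and at 0.26, 0.27 and 0.14 TPM in knockout and 76.76, 79.99 and 82.28 TPM in control cells under M2. It was thus near 0 in knockout cells in every condition. Pcdh7, with log2 fold changes of 3.39 in M0 and 4.51 under M2, Gpr34 with -4.58 and -5.30, and Fam172a with -3.60 and -3.67 were likewise changed in every condition.

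Many of the immune genes above were close to absent outside M1. The difference between the knockout effect under M1 and that in M0 was called in 36% of 11548 genes (1399 higher and 2762 lower), and the difference from M2 in 36.2% (1603 higher and 2574 lower). These splits depend on the scaling, since TMM gave 1913 higher and 2278 lower against M0 and 1870 higher and 2465 lower against M2. Differences of 2-fold or more from M0 were called higher in 0.563% and lower in 0.831% of genes, and those from M2 in 0.771% and 1.41%. For Ccr2 the levels allow a comparison in all states: in M0 it was at 126 ± 6.1 TPM in knockout and 101 ± 5.7 TPM in control cells, and under M2 at 210.5 ± 2.4 TPM in knockout and 253 ± 5.0 TPM in control cells. The knockout effect on Ccr2 differed from that in M0 by 1.35 and from that under M2 by 1.92 log2 units (limma adjusted p = 5.99e-11 and 2.32e-13). Prdx1 was at 1039 ± 13 TPM in knockout and 1068 ± 28 TPM in control cells in M0, and its M1 effect minus its M0 effect was -1.31 log2 units (limma adjusted p = 1.04e-13). Spp1 fell in every state, to 480.1 ± 16 TPM in knockout against 918 ± 49.7 TPM in control cells in M0, and its M1 effect minus its M0 effect was -0.92 log2 units (limma adjusted p = 5.11e-10). Phgdh was at 629.9 ± 36 TPM in knockout and 666 ± 14 TPM in control cells in M0, with an M1 effect minus M0 effect of -0.997 (limma adjusted p = 8.88e-11). The stress response and serine synthesis list to which Phgdh belongs fell outside M1 as well. In M0 14 of 23 tested members were lower and 0 higher, against 1220 lower and 1110 higher of all 10780 tested genes. Under M2 17 of 23 were lower and 1 higher, against 1787 lower and 1182 higher of all 10905. Cd74 was at 504 ± 27 TPM in knockout and 506 ± 13 TPM in control cells in M0, and its M1 effect was higher by 1.04 (limma adjusted p = 8.78e-11). The MHC class II list rose under M2 as well, where 10 of 17 tested members were higher and 2 lower. Its median log2 fold change was 0.32 under M2 and 0.26 over the 9 members tested under M1. In M0 3 of 12 were higher and 1 lower. Slc7a11 was lower in every state, with log2 fold changes of -1.19 in M0, -1.26 under M1 and -1.07 under M2. Genes with little or no transcript in M0 or M2, such as Ccl2, Ccl22 and Il1rn, could show a clear difference only where they were expressed.

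**Figure D5:**
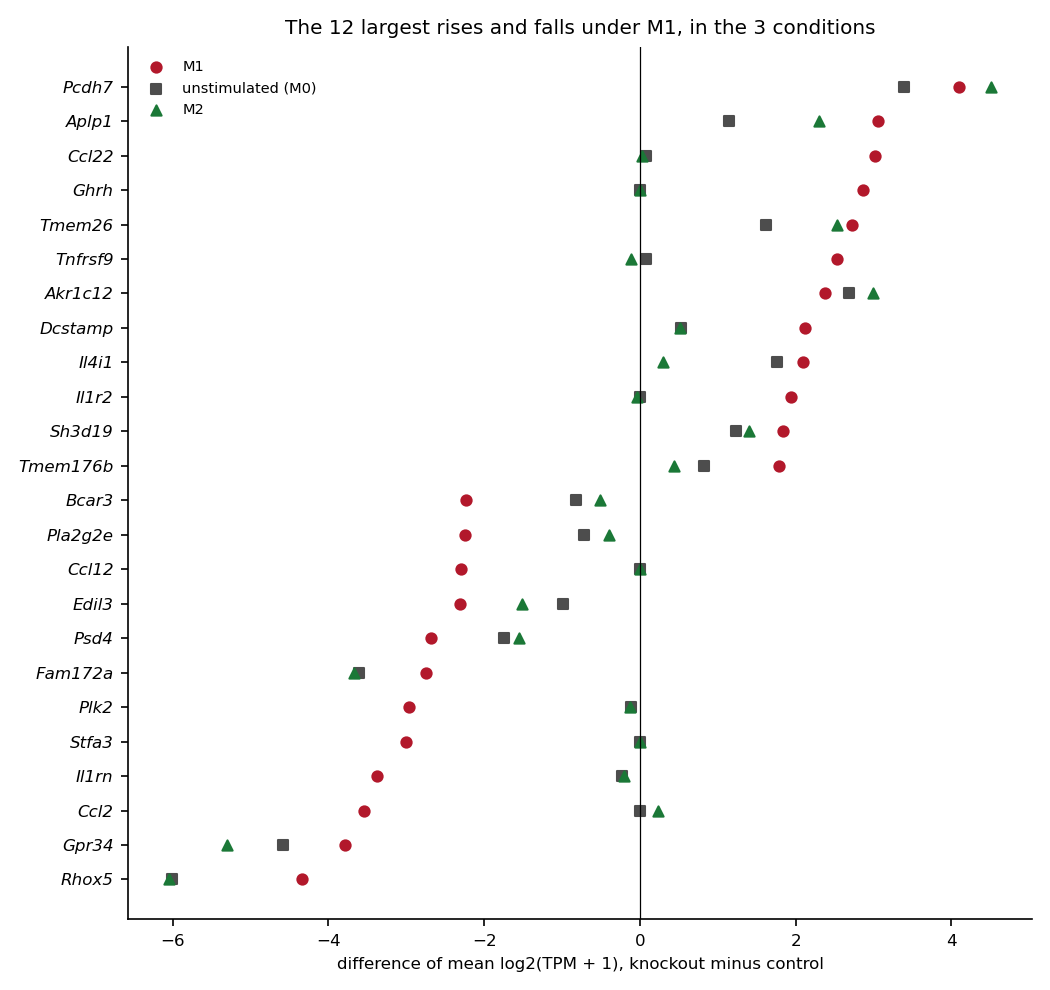
For the 12 largest rises and 12 largest falls under M1, points give the difference of mean log2(TPM + 1), knockout minus control cells, under M1 (circles), in M0 (squares) and under M2 (triangles). Pcdh7, Tmem26, Akr1c12, Rhox5, Gpr34 and Fam172a lie on the same side of 0 in all 3 conditions, while Ccl22, Ghrh, Ccl12 and Stfa3 lie at or near 0 outside M1.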

How the data were processed

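Poly(A) RNA of 18 libraries was sequenced, per the labels' protocols, and the authors deposited 1 table of TPM, transcript shares scaled to the same total in each library, for 24411 gene symbols. Trim Galore and the mm10 build are named in the submitters' processing notes, while the aligner and quantifier used are not given in these sources. Depth is unknown, so no counting interval is given. The members and gene lists were chosen with earlier results of these data known.

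Genes that reached 1 TPM in 3 or more of the 6 M1 libraries were tested with limma 3.58.1 (R 4.3.3, statmod 1.5.0) on log2(TPM + 1), with a trend and robust variance, two-sided, and Benjamini-Hochberg adjustment over all 10474 genes. Fold changes are on that scale, which understates those of low genes. Differences between conditions came from 1 fit of 18 libraries. The script was tested on simulated data. Genes were named as the 12 largest changes in each direction at a mean of 5 TPM or more, the 8 largest differences between conditions in each direction, and members of the lists, from which those in the text were picked after their values were seen. Shared replicate numbers did not pair the libraries (correlations of deviations -0.02, 0.06 and 0.07). Alternatives were TMM and median-ratio scaling, a filter of 5 TPM or none, a pseudocount of 0.1 TPM, a fit without the variance trend, the replicate block, all 18 libraries and each library left out. Promoters came from RefSeq (GRCm38.p6). Tables and figures used Python 3.11.15, pandas 2.3.3, numpy 2.4.6 and matplotlib 3.10.9.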

Additional observations from a re-analysis of the deposited data

Results flagged for a closer look

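Values are given here where the effect of the knockout differed between conditions by a test of the difference itself, the limma interaction over all 18 libraries. Between M1 and M0 the effect was called higher in 1399 and lower in 2762 of 11548 genes, and between M1 and M2 it was higher in 1603 and lower in 2574. The lean towards lower depends on the scaling: against M0, TMM gave 1913 higher and 2278 lower and median-ratio scaling 2023 and 2135, and against M2, 1870 and 2465 with TMM and 1967 and 2370 with median-ratio scaling. The genes named are the 8 with the largest positive and the 8 with the largest negative difference in each case, and every value is the M1 effect minus the other effect in log2 units. Ghrh, Stfa3 and Ccl12 were listed at 0 in all M0 and M2 libraries, so their differences merely repeat their M1 changes. Ccl2, Ccl22, Il1rn, Il1r2, Plk2, Tnfrsf9, Ccr7 and Vegfc were close to 0 there, so theirs mostly do. S100a8 was close to 0 in M0 (means of 0.18 TPM in knockout and 0.12 TPM in control cells), so its difference from M0 mostly does too. Genes listed at 0 could show no effect of the knockout outside M1, and for those close to 0 it could hardly be judged. In M0, for example, Il1rn was at 0.04, 0.11 and 0.09 TPM in knockout cells, against 0.3, 0.21 and 0.28 TPM in control cells. These groups did not overlap, though at a very low level.

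Against M0, the positive differences were 2.94 for Ccl22, 2.87 for Ghrh, 2.45 for Tnfrsf9, 1.95 for Il1r2, 1.91 for Aplp1, 1.81 for Gpr132, 1.76 for Ccr7 and 1.74 for Msr1. Msr1 fell in both conditions, less so under M1, with log2 fold changes of -0.93 under M1 and -2.67 in M0. Gpr132, a lysolipid-sensing receptor gene, was at 91.38, 87.58 and 86.98 TPM in knockout cells, against 29.08, 29.57 and 27.04 TPM in control cells under M1. The negative differences were -3.55 for Ccl2, -3.16 for Il1rn, -3.01 for Stfa3, -2.85 for Plk2, -2.30 for Ccl12, -2.29 for S100a8, -2.18 for Slc40a1 and -1.95 for Vegfc. Slc40a1 was at 6.78, 6.69 and 6.64 TPM in knockout and 3.65, 3.7 and 3.98 TPM in control cells in M0, so its M1 fall had a different sign from its M0 difference. Vegfc, a lymphatic growth factor gene, was at 1.25, 1.28 and 1.22 TPM in knockout cells, against 7.36, 6.27 and 8.33 TPM in control cells under M1.

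Against M2, the positive differences were 2.99 for Ccl22, 2.87 for Ghrh, 2.65 for Tnfrsf9, 2.21 for Gstt1, 2.01 for Neurl3, 1.98 for Il1r2, 1.92 for Ccr2 and 1.80 for Il4i1. Neurl3, a ubiquitin ligase gene, was at 19.73, 20.61 and 21.34 TPM in knockout cells, against 15.91, 15.87 and 15.16 TPM in control cells under M1, and Gstt1, a glutathione transferase gene, at 33.18, 28.06 and 30.21 TPM in knockout cells, against 11.49, 10.39 and 11.07 TPM in control cells. Under M2 both were lower in knockout cells, with means of 9.36 against 31.1 TPM for Neurl3 and 4.01 against 7.87 TPM for Gstt1. The larger part of the Neurl3 difference was thus its fall under M2. The negative differences were -3.78 for Ccl2, -3.28 for Hbegf, -3.17 for Il1rn, -3.01 for Stfa3, -2.84 for Plk2, -2.74 for Cd300lh, -2.58 for Mcoln2 and -2.30 for Ccl12. Hbegf, an epidermal growth factor-like ligand gene, was at 1.24, 1.88 and 1.28 TPM in knockout cells, against 8.05, 7.19 and 6.29 TPM in control cells under M1 and at 15.5 ± 0.79 TPM in knockout and 4.66 ± 0.27 TPM in control cells under M2. Cd300lh and Mcoln2 likewise had opposite signs in the M1 and M2 states. Knockout against control means were 10.8 and 38.5 TPM under M1 and 19.8 and 9.62 TPM under M2 for Cd300lh. For Mcoln2 they were 9.74 and 39.9 TPM under M1 and 33.8 and 21.2 TPM under M2.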

How the results depend on the processing

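With a filter of 5 TPM, 64 genes were higher by 2-fold or more, since fewer genes were tested. With a pseudocount of 0.1 TPM 147 were higher and 238 lower by 2-fold, 125 and 230 for M1 minus M0, and 177 and 272 for M1 minus M2. The median-ratio scaling gave 2968 genes higher and 2791 lower. Leaving out each library in turn gave 1856 to 1960 genes higher and 3277 to 3505 lower, 75 to 97 and 107 to 142 by 2-fold. For M1 minus M0 it gave 1261 to 1287 higher and 2524 to 2617 lower, 58 to 66 and 95 to 107 by 2-fold, and for M1 minus M2 1451 to 1493 higher and 2368 to 2430 lower, 85 to 100 and 156 to 168 by 2-fold. Over all lists together 304 members were called higher and 343 lower, against 382 and 283 under TMM and 374 and 288 under median-ratio scaling, so the balance turns with the scaling, and leaving out libraries gave 281 to 289 higher and 317 to 332 lower, while Kdm7a kept a log2 fold change of -1.88 to -1.83. The fit with the replicate block gave 2158 genes higher and 3776 lower, and among named genes ended only the call of Tnfsf13b. No named gene reversed under M1, while the M1 minus M2 effect on Edil3 was -0.80 and, with a pseudocount of 0.1 TPM, 1.02. Of 170 named genes called, 11 lost the call in at least 1 of 14 alternatives (10 with all 18 libraries), and the cause was not tested. Depth is unknown, so absence of low transcripts cannot be judged.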

Other observations

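Purinergic and adenosine genes, which sense extracellular nucleotides, fell in 8 of 13 tested cases and rose in 1, with a median log2 fold change of -0.52, against -0.07 over all tested genes. P2rx7, the ATP-gated channel, was at 5.12, 5.33 and 4.25 TPM in knockout cells, against 9.78, 8.45 and 7.54 TPM in control cells. Adora2a, an adenosine receptor that dampens inflammation, was at 2.14, 2.71 and 2.62 TPM in knockout cells, against 0.46, 0.32 and 0.66 TPM in control cells and was the gene that rose. Of 13 dual-specificity phosphatases, which switch off MAP kinases, 8 fell and 4 rose. Dusp6, specific for ERK, was at 34.18, 37.39 and 36.26 TPM in knockout cells, against 69.27, 69.63 and 70.02 TPM in control cells. AP-1 and immediate early genes gave 10 rises and 7 falls among 22, with Fosl1, an AP-1 subunit, at 17.2 ± 1.7 TPM in knockout and 30.6 ± 1.6 TPM in control cells and the orphan receptor gene Nr4a1 at 22.01 ± 2.7 TPM in knockout and 13.5 ± 0.50 TPM in control cells.

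Other Jumonji demethylases moved less than Kdm7a: 8 rose and 7 fell of 26 tested, Kdm7a included (10 and 4 under TMM scaling). Jarid2, a cofactor of the H3K27 methyltransferase complex, was at 39.62, 36.97 and 38.96 TPM in knockout cells, against 24.6, 26.2 and 24.01 TPM in control cells. Phf8, a close relative of Kdm7a, was at 39.4 ± 0.49 TPM in knockout and 34.98 ± 0.83 TPM in control cells. Of 20 methyltransferases and readers of the same marks 4 rose and 3 fell (7 and 1 under TMM). Genes linked with the M2 state rose in 8 of 12 tested cases and fell in 3, with 12 of 29 passing the filter. The largest rise and fall of that list, log2 fold changes of 3.02 and -3.38, were those of Ccl22 and Il1rn. Both are also counted in the CC chemokine and interleukin 1 lists. Tgm2, a transglutaminase, was at 43.55, 44.57 and 43.91 TPM in knockout cells, against 30.3, 31.76 and 28.98 TPM in control cells, and Mrc1, the mannose receptor, did not pass. Of 14 osteoclast genes 5 rose and 6 fell. Ocstamp, which like Dcstamp acts in cell fusion, was at 6.08, 4.43 and 5.1 TPM in knockout cells, against 1.58, 2.01 and 1.92 TPM in control cells. Cytosolic ribosomal protein genes gave 19 rises and 7 falls among 46 (28 and 3 under TMM), and nuclear genes of oxidative phosphorylation 16 and 11 among 47 (23 and 5 under TMM). All these counts stand against 20.2% higher and 36.3% lower over all tested genes.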
